A study of Mus musculus with 29 samples.

Results

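The genes described are the 9 members of the Chd family, Chd1 to Chd9, and Atrx, 10 of the 31002 genes in the deposited table. They were chosen by measured values, because Chd4 and Atrx were lower in hAβ-KI mice, so their differences between genotypes are descriptions, and the counts of calls printed for these contrasts support nothing. Hippocampal RNA of 29 mice was sequenced, each as a library of its own. Young mice, aged 2 months, were 7 WT and 8 hAβ-KI animals, and old mice, aged 22 months, were 8 WT and 6 hAβ-KI animals, with 18 males and 11 females in all. The hAβ-KI mice were homozygous for an App gene altered at its own locus so that its Aβ stretch carried the 3 human residues, with loxP sites around exon 14, and no transgene promoter or Cre was involved. WT mice had unaltered mouse App. The labels give C57BL/6N as the strain of WT and C57BL/6NJ as that of hAβ-KI mice, and the library index numbers run in blocks by group. Genotype, substrain and index block therefore cannot be told apart. Within each genotype, age and index block cannot be told apart either, which holds for every age difference below.

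Chromatin remodelers of this kind are ATPases that use the energy of ATP to slide, space, evict or exchange nucleosomes. Chd proteins carry paired chromodomains beside a Snf2-type helicase motor. Chd1 and Chd2 act with transcription elongation, and Chd1 binds trimethylated lysine 4 of histone H3. Chd3, Chd4 and Chd5 are the alternative motors of NuRD, which joins remodeling to histone deacetylation, and Chd4 also works in ChAHP with Adnp and the HP1 proteins. Chd6 to Chd9 form the remaining group, in which Chd7 is the CHARGE syndrome gene and Chd8 is linked to autism. Atrx, encoded on the X chromosome, works with Daxx to place histone H3.3 at heterochromatin and telomeres, and its loss of function causes a syndromic intellectual disability. In neurons, NuRD and Atrx are known for keeping repetitive and developmental genes silent.

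Values are TPM (transcript shares scaled to a common total), which are corrected for transcript length, so that levels of different genes can be compared. Read counts were not used here, so the depth of each library is unknown, and the error given is the spread between mice. TPM of a mouse summed to 717535 to 816940 over the genes in the table, so these sums were not equal between mice. The sex label matched the levels of Xist and Y-linked genes in 29 of 29 mice. App RNA does not check the genotype, since the altered residues are not seen in a gene's TPM, and its group means ranged from 604.6 to 683.3 TPM. Summed hippocampal subfield markers were 246 to 367 TPM, and none of them was at 0 throughout a group. Libraries were compared by the median absolute deviation of log2(TPM + 1) from the other mice of the group. It was 0.20 in old hAβ-KI mouse 2, 0.19 in young WT mouse 1, and at most 0.15 in young hAβ-KI and 0.14 in old WT mice. Old hAβ-KI mouse 2 also had the lowest oligodendrocyte marker sum of all mice, 2389 TPM against 4373 to 5422 TPM in the others of its group.

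The members spanned a wide range of levels. Chd3 was the most abundant at 61.4 ± 7.82 TPM (SD, n = 29), followed by Chd4 at 31.2 ± 7.98 TPM, and the order of these 2 held in 29 of 29 mice. Chd1 at 13.1 ± 1.51 TPM, Atrx at 11.98 ± 4.88 TPM and Chd5 at 10.1 ± 1.74 TPM came next. Over all mice Atrx was not separated from Chd1 or Chd5, since Chd1 exceeded Atrx in 18 of 29 mice and Atrx exceeded Chd5 in 16 of 29. The place of Atrx differed by group. Its mean was above that of Chd1 in young WT mice (17.1 against 14.3 TPM) and below that of Chd5 in old hAβ-KI mice (7.35 against 10.7 TPM). Chd8 at 6.73 ± 1.22 TPM and Chd6 at 4.28 ± 1.07 TPM followed in the same order in every mouse. Chd2 at 2.496 ± 0.79 TPM and Chd9 at 2.27 ± 0.37 TPM were not separated (Chd2 higher in 16 of 29 mice), and Chd7 was lowest at 1.60 ± 0.43 TPM. Chd6 to Chd9 each stayed at or below 9.04 TPM in every mouse. All 10 genes passed the filter on low values (2 or more mice with 1 TPM or more), as did 15554 genes in all.

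**Figure D1:**
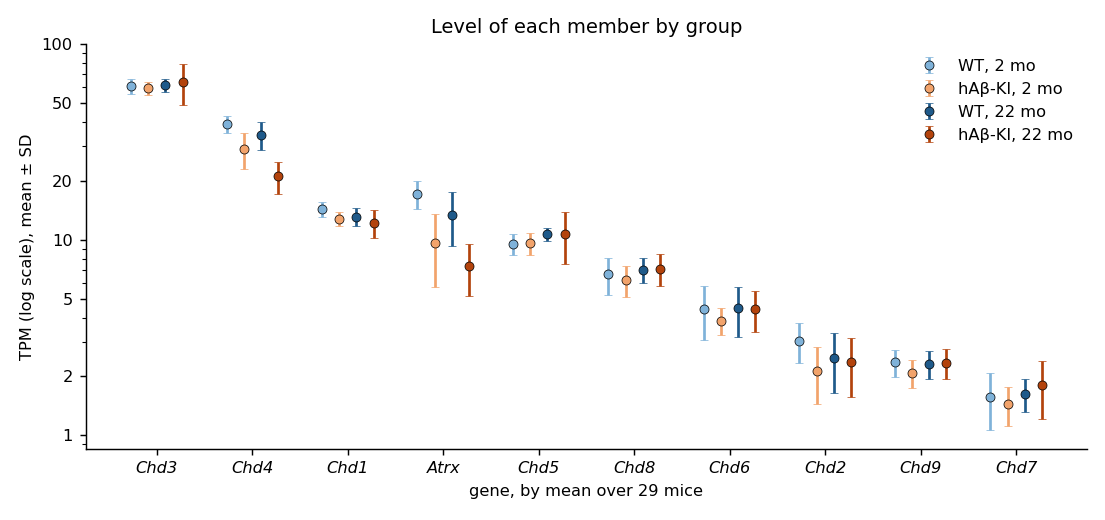
TPM of each gene (log axis) in the 4 groups, as mean ± SD over 7 to 8 young and 6 to 8 old mice, with genes ordered by their mean over all mice. The points of Chd4 and Atrx lie lower for hAβ-KI than for WT at both ages, whereas the means of Chd3 lie between 59.6 and 64.1 TPM in all groups.

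Chd4 (ENSMUSG00000063870) spans bases 125095981 to 125130591 of chromosome 6 (GRCm38, plus strand), and Atrx (ENSMUSG00000031229) bases 105797615 to 105929403 of the X chromosome (minus strand). The bases just upstream of both are shown because these are the genes the choice rested on and they moved together between mice. Capitals mark GGGCGG, the core of a GC box, and CCAAT, searched on both strands. The stretches are chr6:125095731-125095980 for Chd4 and chrX:105929404-105929622 for Atrx (GRCm38.p6, RefSeq), each printed 5′ to 3′ on the strand of the gene and ending before the first annotated start.
Chd4: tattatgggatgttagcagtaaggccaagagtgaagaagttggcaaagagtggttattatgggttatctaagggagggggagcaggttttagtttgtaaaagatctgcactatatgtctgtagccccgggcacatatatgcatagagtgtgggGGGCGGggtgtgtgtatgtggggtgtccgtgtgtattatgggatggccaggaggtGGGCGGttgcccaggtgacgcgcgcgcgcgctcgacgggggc
Atrx: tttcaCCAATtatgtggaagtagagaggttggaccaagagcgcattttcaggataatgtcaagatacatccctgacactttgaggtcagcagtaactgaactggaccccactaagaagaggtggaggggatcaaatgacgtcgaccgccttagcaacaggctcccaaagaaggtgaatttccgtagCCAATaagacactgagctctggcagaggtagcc
The upstream stretch of Chd4 held 2 GGGCGG and no CCAAT, and that of Atrx held 2 CCAAT and no GGGCGG. In the whole window of 300 bases, which runs 250 bases before to 50 after the RefSeq start, Chd4 had 3 GGGCGG and 1 CCAAT, and Atrx had 4 CCAAT. Of 32851 windows of the same length in the RefSeq table, 35.7% held GGGCGG and 37.4% held CCAAT, so neither is rare. TATAAA (in 13.6% of windows), CACGTG (7.15%), TGCGCA (7.76%) and CCGGAA (14.9%) were in neither window. The window of Chd4 had 17 CG dinucleotides and that of Atrx 11, against a median of 7 over all windows. Windows were given for 6 of the 10 members. Those of Chd5, Chd6 and Chd8 and the first of Chd9 held 19 to 33 CG, and the RefSeq table also lists a later start for Chd4, 182 bases downstream.

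Of the Chd family, Chd4 had the largest log2 difference between genotypes in old mice. At 2 months its lowest, median and highest levels were 33.95, 38.12 and 45.13 TPM in WT and 21.05, 27.88 and 41.95 TPM in hAβ-KI mice. Of 8 young hAβ-KI mice, 7 were below every young WT mouse, and the exception was mouse 4 at 41.95 TPM, with the next at 30.26 TPM. At 22 months the levels were 28.65, 33.81 and 43.89 TPM in WT and 17.71, 19.61 and 28.55 TPM in hAβ-KI mice. The old groups did not overlap, although the highest hAβ-KI and the lowest WT mouse were only apart by the step from 28.55 to 28.65 TPM. The mean in hAβ-KI mice was 74.4% of that in WT at 2 months and 61.4% at 22 months. On the log2(TPM + 1) scale used for all differences here, the difference was -0.43 (SE 0.11) in young and -0.68 (SE 0.12) in old mice.

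Atrx was lower by a larger factor, with a wider spread. At 2 months the lowest, median and highest levels were 13.13, 16.27 and 21.08 TPM in WT and 4.95, 9.03 and 14.54 TPM in hAβ-KI mice. At 22 months they were 9.22, 12.19 and 19.90 TPM in WT and 5.26, 6.78 and 10.68 TPM in hAβ-KI mice. The groups overlapped at both ages, with 5 of 8 young and 5 of 6 old hAβ-KI mice below every WT mouse of their age. The hAβ-KI mean was 56.3% of the WT mean at 2 months and 55.0% at 22 months, and the log2 differences were -0.84 (SE 0.20) and -0.77 (SE 0.21). Of the young hAβ-KI mice, 3 were at 13.15 to 14.54 TPM and the other 5 at 4.95 to 10.02 TPM.

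**Figure D2:**
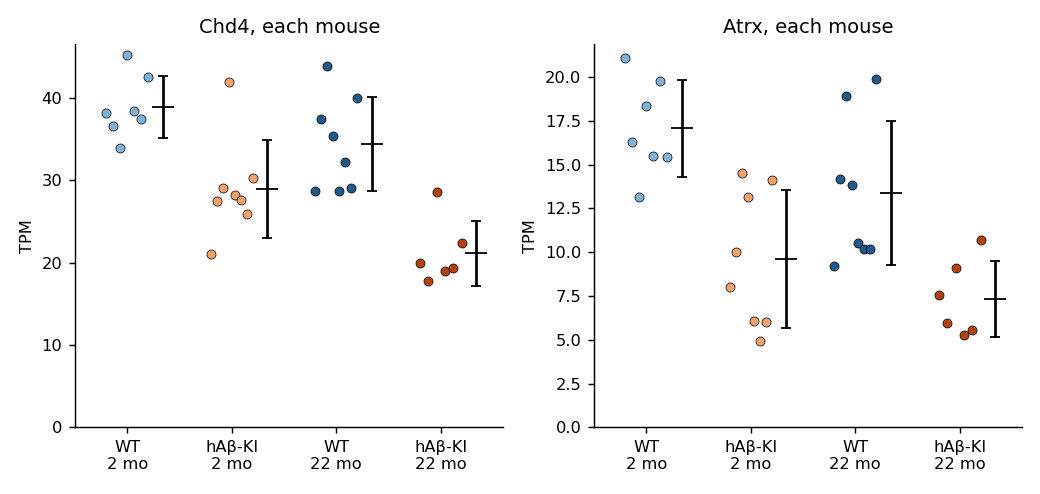
TPM of Chd4 and Atrx in each mouse (points), with the mean and SD beside each group (bars), for 7 young WT, 8 young hAβ-KI, 8 old WT and 6 old hAβ-KI mice. For Chd4 the old groups do not overlap and 1 young hAβ-KI mouse, at 41.95 TPM, lies among the WT mice, while for Atrx the groups overlap at both ages.

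Of the other members, Chd2 in young mice differed most. Chd1, which remodels chromatin at transcribed genes, had a mean of 12.8 ± 1.01 TPM (SD, n = 8) in young hAβ-KI against 14.3 ± 1.22 TPM (SD, n = 7) in young WT mice, a log2 difference of -0.15 (SE 0.08), and of -0.11 (SE 0.08) in old mice. Chd2, a close relative of Chd1 mutated in epilepsy, had a mean of 2.13 ± 0.69 TPM (SD, n = 8) in young hAβ-KI and 3.04 ± 0.70 TPM (SD, n = 7) in young WT mice, and 5 of 8 young hAβ-KI mice were below every WT mouse. The hAβ-KI mean was 70.2% of that in WT, a lower share than the 74.4% of Chd4. The log2 difference was -0.38 (SE 0.16) in young and -0.05 (SE 0.16) in old mice, and with a pseudocount of 0.1 that in young mice was -0.54, against -0.44 for Chd4. Its values are uncertain, because 17.5% of the 43-base stretches of its transcripts, the length of a read, were also held by transcripts of 1810026B05Rik. For the other members the share held by transcripts of any 1 other gene was at most 4.71%. Chd3 and Chd5, the other NuRD motors, had differences between -0.03 and 0.03 at both ages. Leaving out 1 mouse at a time, the difference in old mice ranged from -0.09 to 0.07 for Chd3 and from -0.16 to 0.01 for Chd5. Old hAβ-KI mouse 2 had the highest level of its group for both genes, 94.56 TPM of Chd3 and 17.19 TPM of Chd5. Chd6, Chd7, Chd8 and Chd9 had differences between -0.13 and -0.06 in young mice and within 0.08 of 0 in old mice. Of the 10 members, 9 were lower in young hAβ-KI mice, where 64.6% of all genes tested were, and 6 in old hAβ-KI mice, where 54.2% of all genes were.

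A gene was called when its limma p was under 0.05 and its FDR (Benjamini-Hochberg, over all genes tested) under 0.1. At 2 months 0 of the 10 members passed it, 3 had an unadjusted p under 0.05, and 0.0386% of all genes passed. At 22 months Chd4 passed it, beside 0.495% of all genes, 77 in number, a count that ranged from 30 to 143 when 1 mouse was left out. For groups that do not overlap the count was 0 of 10 members beside 0.0707% of all genes at 2 months, and 1 of 10, Chd4, beside 0.328% at 22 months. Since these contrasts chose the genes, nothing is read from the counts. The genotype difference changed with age past the threshold in 0 members (0 at an unadjusted p under 0.05, limma) and in 0.00643% of all genes. For Chd4 this change was -0.25 (SE 0.16) on the log2 scale.

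Cell type markers were compared between genotypes in the same mice. The 5 hippocampal subfield markers summed to 282 to 363 TPM in old WT and 246 to 295 TPM in old hAβ-KI mice, with 4 of 5 lower, a median log2 difference of -0.22 and none past the threshold (2 at an unadjusted p under 0.05, limma). Of the 7 neuronal markers, 7 were lower in old hAβ-KI mice with a median of -0.03, where 54.2% of all genes were lower. Rbfox3, which marks neuronal nuclei, passed the threshold (-0.20, adjusted p = 0.0678, limma). Other lists also leaned to 1 side. Lower were 5 of 6 astrocyte (median -0.09) and 3 of 4 endothelial markers (-0.18). Higher were 5 of 6 choroid plexus (0.27) and 5 of 5 blood markers (0.31). None of these 4 lists had a call (0 to 1 gene a list at an unadjusted p under 0.05, limma). In young mice 5 of 5 subfield markers were lower with a median of -0.07, and 5 of 7 neuronal markers with a median of -0.01. None of either passed the threshold (0 at an unadjusted p under 0.05, limma), and 64.6% of all genes were lower. The part of these marker differences in those of Chd4 and Atrx was not tested.

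Age was compared next, within each genotype. The groups compared are those whose genotype difference chose Chd4 and Atrx, so for these 2 genes the age differences are descriptions too. In hAβ-KI mice, Chd4 had means of 28.9 ± 5.94 TPM (SD, n = 8) in young and 21.1 ± 3.94 TPM (SD, n = 6) in old mice, a log2 difference of -0.43 (SE 0.12). Of the old hAβ-KI mice, 4 of 6 were below every young one, and the groups overlapped. In WT mice the Chd4 means were 38.9 ± 3.76 TPM (SD, n = 7) and 34.4 ± 5.73 TPM (SD, n = 8), a log2 difference of -0.18 (SE 0.11). Atrx had a log2 difference of -0.36 (SE 0.20) in WT, with means of 17.1 ± 2.78 TPM (SD, n = 7) and 13.4 ± 4.13 TPM (SD, n = 8), and of -0.29 (SE 0.21) in hAβ-KI mice. Of the 10 members, Chd4 passed the threshold in hAβ-KI mice, beside 9.18% of all genes, and nothing is read from this, since the old hAβ-KI mice entered the choice.

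For Chd1, Chd2, Chd3 and Chd5 to Chd9 the age differences lay between -0.23 and 0.15 in WT and between -0.08 and 0.18 in hAβ-KI mice. None of these 8 genes passed the threshold in either genotype (0 at an unadjusted p under 0.05, limma), and in WT mice 5.0% of all genes did. Groups that do not overlap with age were found for 0 of 10 members in WT, beside 0.887% of all genes, and for 0 of 10 in hAβ-KI mice, beside 1.64%. In hAβ-KI mice 7 of the 10 members had a higher mean log2 level in old than in young mice, all except Chd1, Chd4 and Atrx, leaving 3 lower, where 51.2% of all genes were lower.

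**Figure D3:**
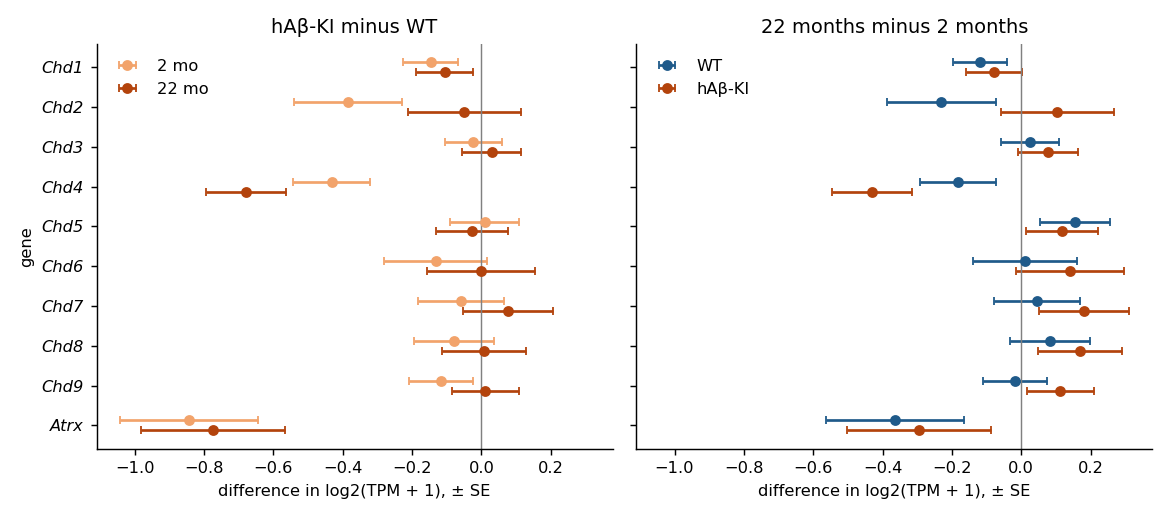
Differences in log2(TPM + 1) with their SE for the 10 genes, between genotypes at 2 and 22 months (left, hAβ-KI minus WT) and between ages in WT and hAβ-KI mice (right, 22 minus 2 months). Chd1, Chd4 and Atrx lie below 0 in all 4 comparisons, with Chd4 and Atrx farther from 0 than Chd1 in each.

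Cell type markers also moved with age in the hAβ-KI mice. In bulk tissue, fewer cells of a type and less RNA per cell cannot be told apart. Of 6 microglial markers, 5 passed the threshold with age in each genotype, all of them higher in old mice. The 6 markers summed to 181 to 212 TPM in young and 248 to 336 TPM in old hAβ-KI mice. The 7 neuronal markers summed to 3688 to 4257 TPM in young and 3574 to 3981 TPM in old hAβ-KI mice, with 2 of the 7 past the threshold, both lower. The 5 hippocampal subfield markers summed to 277 to 355 and 246 to 295 TPM, with none past the threshold (1 at an unadjusted p under 0.05, limma). The markers of newborn neurons and progenitors summed to 18.5 to 21.6 and 15.7 to 19.8 TPM, with 4 of 4 tested lower and 1, Top2a, past the threshold. Of 6 astrocyte markers 4 were higher, of which 1, Gfap, passed the threshold (2 of the 6 at an unadjusted p under 0.05, limma). Of 6 oligodendrocyte markers none passed the threshold (3 at an unadjusted p under 0.05, limma). The part of these shifts in the Chd4 difference was not tested. Without old hAβ-KI mouse 2, the age difference of Chd4 was -0.38, and without young hAβ-KI mouse 4 it was -0.35.

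No member differed between the sexes past the threshold (0 at an unadjusted p under 0.05, limma), where 0.0964% of all genes did. For X-linked Atrx the difference, 11 females minus 18 males with group in the model, was 0.18 (SE 0.15, adjusted p = 0.907, limma). For Chd4 it was 0.11 (SE 0.08, adjusted p = 0.895, limma).

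Because Chd3, Chd4 and Chd5 take the same place in NuRD, their relative levels were described. Chd4 made up 31.3% to 39.7% of the summed TPM of the 3 genes in young WT mice (median 35.4%) and 21.1% to 37.4% in young hAβ-KI mice (median 29.5%). In old mice the share was 26.6% to 37.4% in WT (median 31.9%) and 13.7% to 28.2% in hAβ-KI (median 23.3%). The ranges overlapped at both ages. The lowest share, 13.7%, was that of old hAβ-KI mouse 2, whose Chd3 level of 94.6 TPM was the highest of all mice and whose Chd4 level of 17.7 TPM was the lowest. Without this mouse the old hAβ-KI mean was 24.3% ± 2.24 (SD, n = 5), against 22.5% ± 4.78 (SD, n = 6) with it. Chd3 itself made up 51.7% to 59.1% of the sum in young WT, 52.9% to 67.3% in young hAβ-KI, 53.3% to 63.1% in aged WT and 62.3% to 73.0% in aged hAβ-KI mice. The share rests on Chd4, which the choice of genes used, so it is not tested.

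**Figure D4:**
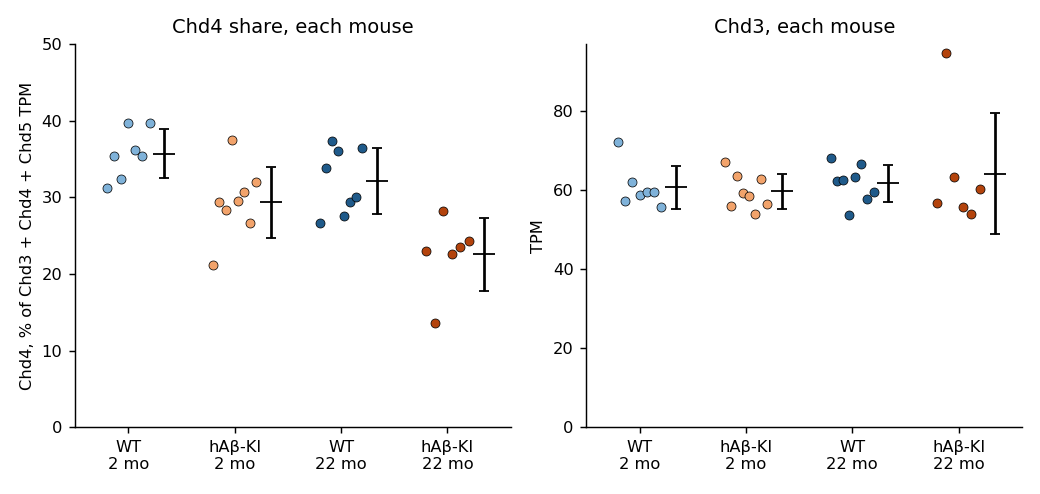
Left, Chd4 as a percent of the summed TPM of Chd3, Chd4 and Chd5 in each mouse; right, Chd3 TPM in each mouse, with the mean and SD beside each group of 7, 8, 8 and 6 mice. The median of the Chd4 share is 35.4% in young WT and 23.3% in old hAβ-KI mice, and 1 old hAβ-KI mouse stands apart with 94.6 TPM of Chd3.

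Partners of the members were examined through lists of complex subunits. In NuRD, 12 of 12 listed partners were tested, and none passed the threshold between genotypes (2 at an unadjusted p under 0.05 at each age, limma). With age, Rbbp4, a histone-binding subunit, averaged 87.7 ± 3.57 TPM (SD, n = 7) in young and 78.2 ± 5.23 TPM (SD, n = 8) in old WT mice and fell by 0.17 (adjusted p = 0.0378, limma). In hAβ-KI mice its relative Rbbp7 fell from 161.9 ± 11.6 (SD, n = 8) to 141.4 ± 10.1 TPM (SD, n = 6; difference -0.19, adjusted p = 0.0337, limma). Mta1, a scaffold subunit, rose by 0.26 (adjusted p = 0.0892, limma), but its highest value, 8.98 TPM, was that of old hAβ-KI mouse 2, and the call was lost without this mouse and with quantile normalization. The call on Rbbp4 was lost with quantile normalization and with rescaling to nuclear protein-coding genes. The median difference over the 12 partners was 0.03 in old mice between genotypes, beside -0.01 over all genes, and -0.07 in young mice, beside -0.03.

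For Atrx, 5 of 5 listed partners were tested, and none passed the threshold between genotypes (1 at an unadjusted p under 0.05 at each age, limma). H3f3b, a gene of histone H3.3, fell with age in WT mice from 225.9 ± 7.81 (SD, n = 7) to 206.1 ± 15.03 TPM (SD, n = 8), a difference of -0.13 (adjusted p = 0.0876, limma). This call was lost under both other scalings and without young WT mouse 1. With age in WT mice 4 of the 5 partners had an unadjusted p under 0.05 (limma), and of the 5, 3 were lower and 2 higher. With age in hAβ-KI mice none passed the threshold (0 at an unadjusted p under 0.05, limma). The 4 listed members of ChAHP and HP1 had no call in any contrast (0 to 1 gene a contrast at an unadjusted p under 0.05, limma).

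Other remodelers were tested for comparison. Between genotypes, no gene of the SWI/SNF (26 of 26 tested), ISWI (10 of 11), INO80, SRCAP and p400 (22 of 22), other Snf2-type (9 of 12) or H3K4 methyltransferase (11 of 11) lists passed the threshold at either age. At an unadjusted p under 0.05 (limma) there were 0 to 2 genes a list in young and 1 to 4 in old mice. In hAβ-KI mice 3 of 26 SWI/SNF genes passed the threshold with age, all lower in old mice, where 9.18% of all genes were called in either direction. These were Ss18l1 (-0.22, adjusted p = 0.0327, limma), Actl6b (-0.16, adjusted p = 0.0877) and Brd9 (-0.15, adjusted p = 0.0881), of which Ss18l1 passed under quantile normalization and without old hAβ-KI mouse 2, and the others under neither. Ruvbl1, an ATPase shared by INO80 and SRCAP, fell by 0.15 (adjusted p = 0.0360, limma), from 57.9 ± 2.87 (SD, n = 8) to 52.0 ± 1.81 TPM (SD, n = 6). Kmt2a, a methyltransferase for lysine 4 of histone H3, rose by 0.31 (adjusted p = 0.0617, limma), from 2.52 ± 0.45 (SD, n = 8) to 3.38 ± 0.66 TPM (SD, n = 6), a call lost without old hAβ-KI mouse 2 and with quantile normalization. The ISWI and other Snf2-type lists had no call with age in hAβ-KI mice (0 genes at an unadjusted p under 0.05, limma). With age in WT mice none of these 5 lists had a call (0 to 4 genes a list at an unadjusted p under 0.05, limma). The age differences of the listed genes that passed were 0.13 to 0.31 in size. They are not ranked against the 0.43 of Chd4, because the old hAβ-KI mice entered the choice of Chd4.

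Whether the members moved together between mice was examined on log2(TPM + 1) minus the group mean, which removes genotype and age. Chd4 and Atrx were correlated over the 29 mice, with Pearson's r of 0.64 (permutation within groups, p = 0.00053, adjusted over 17 pairs 0.00901) and Spearman's rho of 0.69 (permutation p = 0.00019, adjusted 0.00323). The value was 0.62 without the 2 mice farthest from the Chd4 median, 0.81 within the 15 WT and 0.55 within the 14 hAβ-KI mice. Atrx was also correlated with Chd9, r = 0.56 (permutation p = 0.0025, adjusted 0.0212) and rho = 0.56 (permutation p = 0.00277, adjusted 0.0235), with 0.45 when the 2 mice farthest from the Atrx median were left out. The other 15 pairs with Chd4 or Atrx had r between -0.25 and 0.36 and adjusted permutation p of at least 0.23. With its alternatives in NuRD, Chd4 had r = -0.25 for Chd3 (adjusted permutation p = 0.486) and r = -0.16 for Chd5 (adjusted permutation p = 0.621).

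All members have long transcripts, from 6697 bases in Chd4 to 12008 in Chd9, longer than 90.6% to 98.9% of the genes tested. The slope of log2(TPM + 1) on log2 transcript length, taken in each library, was correlated with Atrx at 0.49, with Chd9 at 0.69 and with Chd4 at 0.32, given as descriptions over 29 mice. With this slope regressed out, r of Chd4 and Atrx was 0.59 (adjusted permutation p = 0.0479), while that of Atrx and Chd9 was 0.35 (adjusted permutation p = 0.193) and no longer passed 0.05. The median slope was -0.571 and -0.580 in WT and -0.580 and -0.591 in hAβ-KI mice, the young before the old in each. With the slope as a covariate, the age difference of Chd4 in hAβ-KI mice was -0.41.

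**Figure D5:**
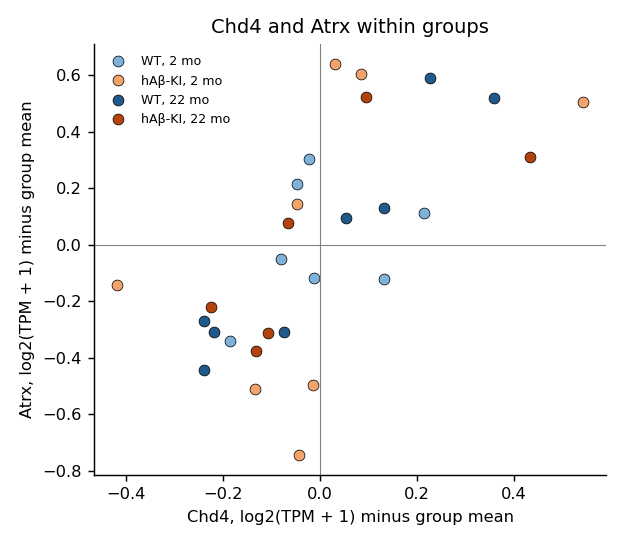
Each point is 1 of 29 mice, with the log2(TPM + 1) of Chd4 (x axis) and of Atrx (y axis) minus the mean of its group. Mice with more Chd4 than their group tended to have more Atrx, with r = 0.64.

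Atrx varied more between mice of a group than most genes of its level. Its coefficient of variation, averaged over the 4 groups, was 29.4%, above that of 95.9% of the 2738 genes within 1.5 times its level, whose median was 13.2%. For Chd4 it was 16.4%, against a median of 9.49% over 2319 such genes, and for Chd9 16.6%, against 24.3% over 2125. Among young WT mice Atrx varied by 16.3% and among young hAβ-KI mice by 40.7%, whereas in old mice it varied by 30.9% in WT and 29.6% in hAβ-KI.

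Of 9670 other genes with a mean of at least 5 TPM, those whose group-centred levels were most like Chd4 over the 29 mice were Pdpk1 (r = 0.70), Arid4b (0.69), Gm26917 (0.69), Cdc42bpa (0.69) and Add2 (0.67). Pdpk1 encodes a kinase that activates Akt, Cdc42bpa a kinase downstream of Cdc42, and Add2 an adducin of the membrane skeleton. Gm26917 is a long non-coding RNA. Among those most like Atrx were Tcf4 (r = 0.88), Ccser2 (0.84), Golgb1 (0.83) and Arid4b (0.83). Tcf4 encodes a basic helix-loop-helix transcription factor and Golgb1 a Golgi membrane protein. Arid4b, a subunit of a Sin3 deacetylase complex, was in both sets. The other genes named also followed the other member. Those named for Chd4 had r with Atrx of 0.53 (Gm26917) to 0.82 (Add2). Those named for Atrx had r with Chd4 of 0.58 (Ccser2) to 0.63 (Tcf4). Such likeness is therefore not particular to the pair of Chd4 and Atrx. These are descriptions, chosen as the highest of many. The 4 genes named for Atrx have a longest transcript of 5864 to 11001 bases, against a median of 3210 over the genes considered.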

How the data were processed

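Hippocampal cDNA of 29 mice was made by Smart-seq2, and both ends were read for 43 bases. The authors mapped them to GRCm38 (STAR 2.5.1b), quantified Gencode vM8 genes (RSEM 1.2.22) and deposited TPM values of 31002 genes. TPM hold no read count, so counting error could not be given. From them log2(TPM + 1) was fitted with limma 3.58.1 in R 4.3.3, in 1 model of the 4 groups, for the 15554 genes that reached 1 TPM in 2 or more mice. p-values measure the spread between mice. Sex was added to the model for its own contrast. On simulated data with 100 genes shifted by 0.5 in old hAβ-KI mice, 85% were called with age in hAβ-KI mice, and 99% of 100 shifted by 1, of 15554 tested. The shifted genes had a mean log2(TPM + 1) above 2, which Chd2, Chd7 and Chd9 did not reach, and no shift below 0.5 was tried. Noise was drawn separately for each gene and mouse, with the same spread in all groups. It held no deviant library like old hAβ-KI mouse 2, so the shares cover that setting only. Correlations used 100000 permutations within groups, adjusted over 17 pairs. The members and lists were chosen with earlier results of these data known. Genes named from a list are up to 3 with the largest difference among those past the threshold at 22 months or with age, and genes named for likeness are the 5 with the highest r, of which 1 is not reported here. Positions are from GENCODE M21 on the same build, and upstream sequences from RefSeq. Alternatives were other scalings, filters, pseudocounts, models and samples. Mice are numbered by accession order.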

Additional observations from a re-analysis of the deposited data

Results flagged for a closer look

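The level of 1 mouse lay far from the others of its group, by Dixon's 95% limit, in 6 of 76 groups examined (19 genes in 4 groups each), where chance gives about 1 in 20. Old hAβ-KI mouse 2 was the highest of its group for Chd3 at 94.56 TPM, with the others at 53.83 to 63.19 TPM, for Chd5 at 17.19 TPM, with the others at 8.88 to 9.99 TPM, and for Mta1 at 8.98 TPM, with the others at 5.11 to 6.22 TPM. Young WT mouse 1 was the highest of its group for Chd3 at 71.98 TPM (others 55.56 to 61.99 TPM) and for Chd5 at 11.82 TPM (others 8.35 to 9.81 TPM). Young hAβ-KI mouse 4 was the highest of its group for Chd4 at 41.95 TPM, with the others at 21.05 to 30.26 TPM.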

How the results depend on the processing

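Over 10 alternatives and 29 mice left out in turn, 2229 of 2310 recomputed differences of a member kept their sign, and the 81 that did not were past the threshold in neither form. Many of the 2310 could not change. A difference stays as it was when the mouse left out is from a group not compared. The same holds when only the filter, the variance trend or the set of groups fitted is altered. The count of kept signs is therefore no measure of stability. The age difference of Chd4 in hAβ-KI mice lay between -0.52 and -0.35. The genotype counts that follow describe contrasts that chose the genes. Leaving out 1 mouse at a time, the number of members past the threshold ranged from 0 to 1 for genotype at 2 months (1, Chd4, without young hAβ-KI mouse 4) and from 1 to 2 for genotype at 22 months (2, Chd4 and Atrx, without old hAβ-KI mouse 6). With quantile normalization, the count with age in WT was 0 for NuRD and 0 for Atrx partners, and with age in hAβ-KI 1 for NuRD, 1 for SWI/SNF and 0 for the H3K4 list. Rescaling to nuclear protein-coding genes gave 0 for NuRD and 0 for Atrx partners in WT, and 2 for the H3K4 list in hAβ-KI. Leaving out old hAβ-KI mouse 2 or young WT mouse 1, chosen after seeing the data, gave counts of 2 for NuRD and 0 to 2 for Atrx partners with age in WT. With age in hAβ-KI the same counts ranged from 1 to 3 for NuRD, 0 to 1 for ChAHP and HP1 and 0 to 1 for the H3K4 list, and for genotype at 22 months from 0 to 1 for SWI/SNF. The cause was not tested. Over all genes, the calls for genotype at 22 months (77) were 30 to 51 without old WT mouse 1, 2, 3 or 6 or old hAβ-KI mouse 4 or 5, and 143 without old hAβ-KI mouse 2. Those with age in WT (777) were 509 without old WT mouse 7, those with age in hAβ-KI (1428) were 910 without old hAβ-KI mouse 4, and those for genotype at 2 months (6) were 11 without young hAβ-KI mouse 4. With mice that share the first number of their name treated as correlated, the calls for genotype at 22 months were 49 and no count of members changed. With transcript length regressed out, Atrx and Chd6 had r = -0.46 (adjusted permutation p = 0.0479). No paired analysis was possible because replicate numbers follow accession order and pair no mice across groups. Depth is unknown, so no counting error could be given for members near 1 TPM.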

Other observations

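Among the 45 pairs of members, the highest group-centred correlation was that of Chd3 and Chd5, r = 0.86 over 29 mice, given as a description because the pair was chosen after its value was seen. Without old hAβ-KI mouse 2 it was 0.66 (n = 28). Chd1 and Chd3 had r = -0.44 over all mice and 0.04 without that mouse, while Chd4 and Atrx had 0.64 both times. Choroid plexus markers summed to 76.0 TPM in that mouse and to 2730 to 11411 TPM in the other old hAβ-KI mice, and to between 37.0 and 17931 TPM over all mice. The summed TPM of Chd1 to Chd9 was 141.4 ± 8.40 (SD, n = 7) in young WT, 126.7 ± 7.33 (SD, n = 8) in young hAβ-KI, 137.8 ± 7.93 (SD, n = 8) in old WT and 126.1 ± 18.3 (SD, n = 6) in old hAβ-KI mice.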
